A study of Mus musculus with 4 samples.

Results

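The RNAs described here are 195 genes whose transcripts carry a RefSeq non-coding accession (NR_) and whose array signal differed between the 4 arrays of an iron and knockdown experiment in mouse macrophages. They were taken from 2333 gene names with such a probe. A probe had to be well above background, by the scanner's own call, on all 4 arrays, which 729 of these gene names passed, and its highest and lowest values had to lie at least 0.7 apart on the log2 scale. The array holds 36870 gene names in all. Where a gene had several passing probes, the brightest was kept. The RNAs were thus selected on their values on all 4 arrays, and every difference between these arrays is given for the 195 RNAs as a description, with no test.

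The cells were RAW264, a macrophage line of BALB/c mouse origin, grown in culture. One culture was transfected with a small interfering RNA against GFP, a green fluorescent protein that served as the control target, and left without iron (siGFP). A second siGFP culture received 500 µM ferric chloride (FeCl3) for 24 hours, begun 48 hours after transfection (siGFP with iron). The other pair was transfected with small interfering RNA against Tfe3 and Tfeb, transcription factors of lysosome and autophagy genes, and was left without iron (siTfe3/Tfeb) or given the same iron (siTfe3/Tfeb with iron). All 4 cultures had therefore been transfected. Each group is 1 sample on 1 array, so no comparison has a replicate check, and the strain, the cell line and the transfection were shared by all groups.

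On the array, the bright Tfe3 probe kept 60.6% of its siGFP level in siTfe3/Tfeb cells without iron and 68.4% with iron, whereas the brightest Tfeb probe kept 91.0% and 112%. Of 12 macrophage markers, 11 were well above background on all 4 arrays, as were 1 of 5 fibroblast, 0 of 4 epithelial, 1 of 4 endothelial (Pecam1) and 4 of 6 lymphocyte markers (Cd3e, Cd3d, Ms4a1 and Cd4). No spot was saturated. The 75th percentile of the signal, to which each array was scaled, lay between 592.7 and 636.3, and 836 to 931 of 2556 non-coding probes were well above background per array, fewest in siTfe3/Tfeb cells with iron.

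Long non-coding RNAs are transcripts without a long reading frame. Some carry small RNAs in their introns: small nucleolar RNAs (snoRNAs), which guide the modification of ribosomal RNA, or microRNAs, which are cut out of the host transcript and repress messenger RNAs. The spliced host RNA is often short-lived, and several snoRNA hosts begin with a pyrimidine-rich start like that of ribosomal protein genes, a feature that ties their translation and decay to growth signals. Other long non-coding RNAs lie beside or antisense to coding genes, and pseudogenes are copies of coding genes that have lost their function. In macrophages, several such RNAs are known from inflammatory responses.

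The 195 were classed by RefSeq gene type and by the wording of the array's own gene description. Of them, 127 were other long non-coding RNAs, 29 were pseudogenes and 17 were antisense or opposite-strand RNAs. A further 14 were non-coding transcripts of coding genes, and 8 were named hosts of small RNAs. RefSeq symbols were not used, so 4932416H05Rik (Stk35os1 in RefSeq) and 1810032O08Rik (Snhg16) count as other long non-coding RNAs. RefSeq held an entry for 194 of the 195, of which 187 matched by accession. A value below is the log2 signal relative to the 75th percentile of its array. The 4 levels of an RNA are given first for the siGFP arrays, without and then with iron, and next for the siTfe3/Tfeb arrays in the same way. They can be compared between arrays but not between probes.

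The probes of RNAs on which the account turns are shown first, because on this array a probe of 60 bases stands for the whole RNA. Their sequences are those of the array design, 5′ to 3′, with positions in mouse build mm9. Capitals in the Mcpt-ps1 probe mark a run that holds 3 copies of an 11-base repeat. Capitals in the probes of the pseudogenes Gpr137b-ps and 2700099C18Rik mark the letters they share with a probe of the coding genes Gpr137b (46 bases) and Ndc80 (25 bases).
2900060B14Rik (chr1:120355259-120355318, minus strand): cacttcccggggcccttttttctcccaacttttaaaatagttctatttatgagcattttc
Gm8884 (chr9:48262769-48262828, plus strand): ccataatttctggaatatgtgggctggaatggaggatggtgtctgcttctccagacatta
Mcpt-ps1 (chr14:56568737-56568796, minus strand): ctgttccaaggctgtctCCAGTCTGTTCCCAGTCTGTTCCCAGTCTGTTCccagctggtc
Gm15645 (chr7:113011671-113011730, plus strand): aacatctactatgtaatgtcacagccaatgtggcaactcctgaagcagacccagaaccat
Snhg1 (chr19:8798913-8798972, plus strand): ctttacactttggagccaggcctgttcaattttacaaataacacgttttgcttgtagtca
Lockd (chr6:134901431-134901490, plus strand): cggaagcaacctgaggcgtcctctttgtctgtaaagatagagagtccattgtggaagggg
Mirt1 (chr19:53526151-53526210, minus strand): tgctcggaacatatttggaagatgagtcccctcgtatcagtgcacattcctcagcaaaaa
Gpr137b-ps (chr13:12707412-12707471, minus strand): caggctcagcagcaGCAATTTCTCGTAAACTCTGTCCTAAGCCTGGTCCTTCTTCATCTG
2700099C18Rik (chr17:95160893-95161809, plus strand): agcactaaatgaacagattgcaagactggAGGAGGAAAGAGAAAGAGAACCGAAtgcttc

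The start regions of the 10 snoRNA host members with a promoter entry are shown next. Each line is 40 bases around the annotated start, from RefSeq on GRCm38.p6, on the gene's strand. Capitals mark a run of at least 6 pyrimidines (C or T) that begins with C within 10 bases of the annotated start.
Snhg12 (chr4:132308663-132308702, plus strand): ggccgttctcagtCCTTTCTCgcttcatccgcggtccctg
1810032O08Rik (chr11:116671645-116671684, plus strand): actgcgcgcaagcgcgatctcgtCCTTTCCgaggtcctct
2410006H16Rik (chr11:62602862-62602901, plus strand): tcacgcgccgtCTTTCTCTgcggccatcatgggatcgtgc
5730408K05Rik (chr19:8888746-8888785, minus strand): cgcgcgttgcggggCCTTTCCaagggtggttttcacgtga
Snhg8 (chr3:123508312-123508351, minus strand): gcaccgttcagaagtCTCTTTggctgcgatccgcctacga
2700038G22Rik (chr5:23850582-23850621, plus strand): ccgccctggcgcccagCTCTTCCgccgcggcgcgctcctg
Snhg18 (chr15:32244638-32244677, minus strand): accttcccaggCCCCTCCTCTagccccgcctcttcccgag
Snhg1 (chr19:8723472-8723511, plus strand): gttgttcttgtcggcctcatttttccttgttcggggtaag
Snhg5 (chr9:88522873-88522912, minus strand): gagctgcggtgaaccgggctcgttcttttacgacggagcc
Zfas1 (chr2:167062919-167062958, plus strand): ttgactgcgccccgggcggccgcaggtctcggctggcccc
Such a run was found in 7 of these 10 genes (70.0%), in 28.1% of the 135 members with a promoter entry and in 21.9% of all 27025 genes with one. This search was added after the values had been seen. Measured hosts that are not members were not counted apart, and a link of the run to iron was not tested. The 3 genes without it by this definition, Snhg1, Snhg5 and Zfas1, were among the 5 snoRNA hosts with the widest range.

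Ranges of the 195 RNAs ran from 0.70 to 2.43 with a median of 0.95. Their mean levels ran from -4.40 to 4.86 with a median of -2.45, so most were dim. The only error that these arrays give is that of repeated spots of one probe within an array. Scaled to the difference of a pair of spots, its SD was 0.0637 above a level of 2, 0.237 between -3 and -1, and 0.271 between -4 and -3. The first value rests on 1090 sets of repeated spots, the dimmer ones on only 19 and 22. The range was at least 3 such SDs for 170 of 195 RNAs and at least 5 for 79. Because the rule asked for a range of at least 0.7, these counts largely follow from it and nothing is read from them. These SDs cover spotting and scanning within an array, not differences between arrays or between cultures.

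A range of 0.7 or more was not particular to non-coding genes once level was considered. Taking the brightest probe of each gene, it occurred in 25.5% of non-coding genes (174 of 683) and in 20.1% of genes with a coding accession (2384 of 11880). Below a level of -3 the shares were 32.4% and 32.3%, between -3 and -1 they were 27.7% and 29.6%, between -1 and 1 they were 18.2% and 21.4%, and above 1 they were 18.6% and 14.3%. Just inside the threshold lay 5730405O15Rik (0.7018), Med9os (0.7048) and the non-coding transcript of Slc8a1 (0.7073). Just outside were Gm6756 (0.6994), 9230102O04Rik (0.6989) and Gm1976 (0.6956).

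The array with the highest value was most often siTfe3/Tfeb without iron, in 84 of 195 RNAs, followed by siGFP in 50, siGFP with iron in 44 and siTfe3/Tfeb with iron in 17. The lowest value fell on siGFP with iron in 67, siTfe3/Tfeb with iron in 52, siTfe3/Tfeb in 51 and siGFP in 25. How often each array was highest or lowest over all genes was not counted, so nothing is read from these counts. The most common pairing, in 65 RNAs, was highest in siTfe3/Tfeb and lowest in siGFP with iron. These are the RNAs that were lower with iron in both siRNA groups and higher with the knockdown at both iron states, 65 of 195 members and 3512 of all 18467 genes. A further 32 were lower in all 4 comparisons (16.4%, against 12.5% of all genes), 31 were higher with iron and lower with the knockdown throughout (15.9% against 16.8%), and 13 were higher in all 4 (6.67% against 9.34%).

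**Figure D1:**
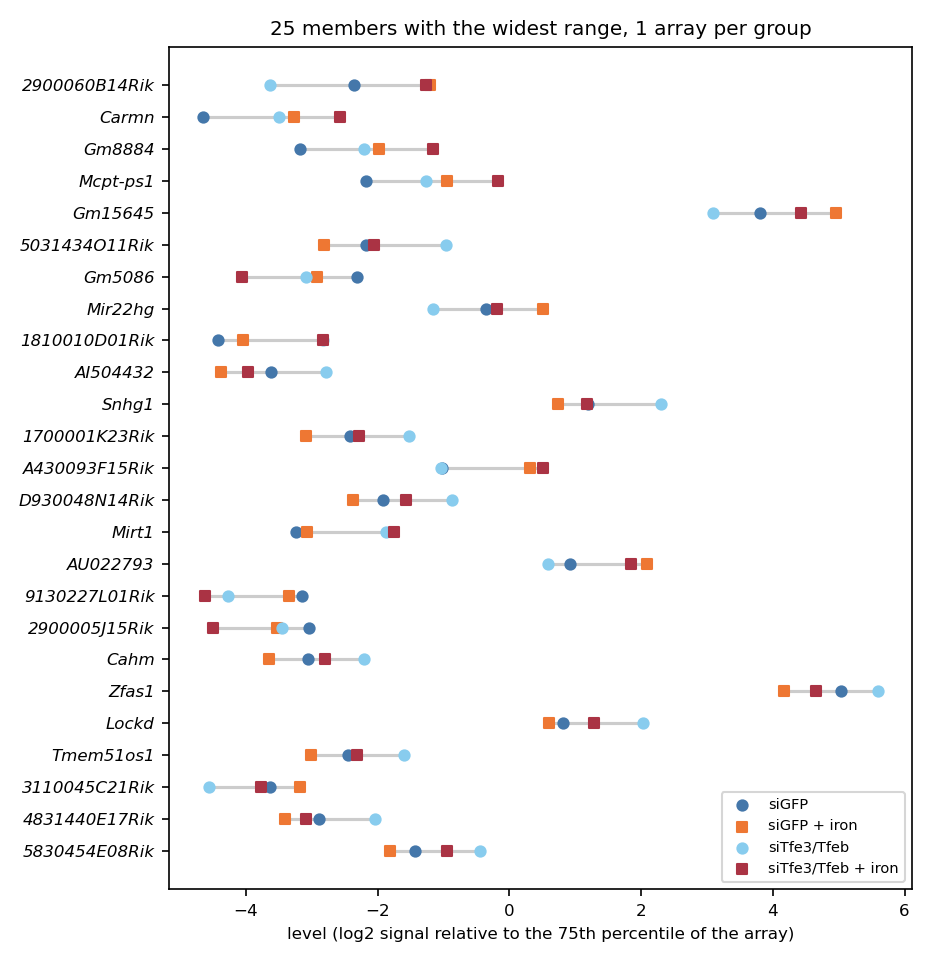
Levels of the 25 RNAs with the widest range on the 4 arrays, as log2 signal relative to the 75th percentile of each array. Blue circles are cultures without iron and orange or red squares those with iron, grey lines span the range, and each point is 1 array; the 3 RNAs Carmn, Gm8884 and Mcpt-ps1 have their lowest point in siGFP and their highest in siTfe3/Tfeb with iron.

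The first comparison asked how iron altered these RNAs in siGFP cells. At least 2-fold higher with iron were 11 of 195, against 1.24% of all 18467 genes well above background on the 4 arrays, and 2 were at least 2-fold lower, against 0.227%. In siTfe3/Tfeb cells 7 were 2-fold higher with iron (1.36% of all genes) and 7 were 2-fold lower (0.406%). Because the members were chosen for differing between these arrays, nothing is read from these shares. The median iron difference of the 195 was -0.18 under siGFP and -0.29 under siTfe3/Tfeb, against -0.0265 and -0.0033 over all genes. In each siRNA group 126 of 195 lay below 0, against 55.1% of all genes under siGFP and 50.5% under siTfe3/Tfeb. In RNA of whole cultures, fewer cells with a transcript and less of it per cell cannot be told apart.

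The second comparison set siTfe3/Tfeb against siGFP. Without iron, 11 members were at least 2-fold higher (1.28% of all genes) and 10 were at least 2-fold lower (1.6%). With iron, 4 were 2-fold higher (0.731%) and 6 were 2-fold lower (1.12%). The medians were 0.15 without iron and -0.07 with iron, against -0.0224 and -0.0033 over all genes. The iron responses of both siRNA groups, taken as a difference of differences, lay 2-fold or more apart in 7 RNAs, of which 5 responded more positively under siTfe3/Tfeb (0.303% of all genes) and 2 less (0.412%).

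Of the 58 differences of at least 2-fold in these 4 comparisons, 16 remained 2-fold when the background was corrected by normexp, which draws dim values together, and all 58 kept their direction.

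The iron differences of both siRNA groups, which share no array, had the same sign in most of these RNAs, as in most genes. Both were above 0 in 50 (25.6%, against 32.4% of all genes), both below 0 in 107 (54.9% against 38.1%), and they differed in sign in 38 (19.5% against 29.5%). Across the 195 RNAs their Pearson correlation was 0.70, and 0.63 across all genes, which are not independent points since all come from the same 4 arrays. The knockdown differences without and with iron were both above 0 in 85 RNAs (43.6%, against 36.2% of all genes), both below 0 in 84 (43.1% against 39.2%) and of opposite sign in 26 (13.3% against 24.6%).

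**Figure D2:**
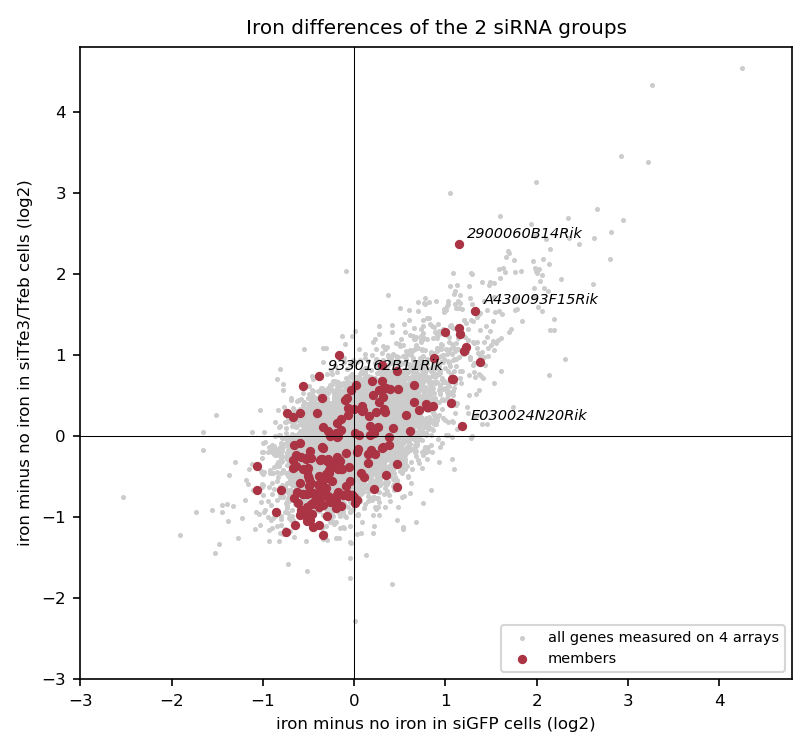
Iron difference (iron minus no iron, log2) in siTfe3/Tfeb cells against that in siGFP cells, with 1 array per group. Red points are the 195 members and grey points all 18467 genes; 107 members lie in the lower left quadrant and 2900060B14Rik is the highest member on the vertical axis.

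Among snoRNA hosts, the values with iron were lower than without it in nearly every member. RefSeq places a snoRNA gene within 13 of the 195 RNAs, and 12 of these 13 were below 0 with iron in siGFP cells (median -0.43) and 12 in siTfe3/Tfeb cells (median -0.73), against 55.1% and 50.5% of all genes. These 13 were selected on the same arrays; over all 29 measured hosts, members or not, 24 and 23 were below 0, with a median of -0.33 in each siRNA group. With the knockdown, 9 of 13 were above 0 without iron (median 0.46) and 7 of 13 with iron (median 0.07). Over all 29 measured hosts 17 and 15 were above 0, and over all 18467 genes 8736 and 9167.

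Snhg1, host of the U22 snoRNA gene and 7 others, read 1.19, 0.74, 2.31 and 1.18. It was 2.17-fold higher in siTfe3/Tfeb than in siGFP cells without iron and 2.18-fold lower after iron when siTfe3/Tfeb had been given. The siTfe3/Tfeb array without iron stood above the other three, and the difference of 1.12 compares with a spot SD of 0.084.

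Zfas1, host of Snord12 and 2 other snoRNA genes and transcribed opposite to Znfx1, read 5.03, 4.18, 5.60 and 4.66. Both arrays with iron lay below both arrays without it, with differences of -0.85 under siGFP and -0.94 in siTfe3/Tfeb cells (spot SD 0.0637). 2410006H16Rik, with the genes Snord49a, Snord49b and Snord65 inside, read 3.69, 3.11, 4.44 and 3.52. Its highest array was siTfe3/Tfeb and its lowest siGFP with iron, as for Snhg1 and Zfas1.

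For the brightest hosts, with mean levels above 2, the spot SD was 0.0637. Snhg6, host of Snord87, read 4.21, 3.86, 5.08 and 4.35, again with siTfe3/Tfeb highest and siGFP with iron lowest. Snhg5 read 2.86, 2.48, 3.64 and 2.54. Its iron difference was -1.10 in siTfe3/Tfeb cells and -0.38 in siGFP cells. The difference between those responses, -0.72, was not tested. A second Snhg5 probe was much dimmer, with a mean level of -3.56 (spot SD 0.271) against 2.88. This dim probe differed by 0.57 with iron in siTfe3/Tfeb cells, the other direction, and by -0.24 in siGFP cells. Its knockdown difference without iron was -0.33, against 0.78 at the member probe. Epb41l4aos, the opposite-strand RNA of Epb41l4a, read 2.11, 1.54, 2.56 and 1.85, with both arrays with iron below both without.

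Snhg12, with Snora16a, Snora44, Snora61 and Snord99 inside, read 2.32, 1.85, 2.56 and 1.72. 1810032O08Rik, which RefSeq names Snhg16 and which holds the 3 Snord1 genes, read 2.59, 2.16, 2.90 and 2.11. In both, the arrays with iron were the lower pair, and the knockdown differences were small (0.24 and -0.13 for Snhg12, 0.31 and -0.05 for Snhg16). Snhg8, host of Snora24, read 5.24, 4.93, 4.90 and 4.39 and went the other way with the knockdown (-0.34 without iron and -0.54 with iron).

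5730408K05Rik, with Snora57 inside, read 1.32, 0.97, 0.45 and 0.32. Both of its siTfe3/Tfeb arrays lay below both siGFP arrays, with differences of -0.87 without iron and -0.65 with iron, unlike Snhg1, Snhg5, Snhg6 and Zfas1. A dimmer 5730408K05Rik probe differed by -0.43 and -0.19 with the knockdown and by 0.17 and 0.41 with iron, against -0.35 and -0.14. 2700038G22Rik, with Snord93, read -0.74, -0.92, -1.09 and -1.50. The dim hosts Gm4759 and Snhg18 each went apart from the rest with iron in a single siRNA group. Gm4759 read -2.22, -2.90, -3.02 and -2.79, with an iron difference of -0.68 in siGFP cells. Snhg18, with Snord123, read -3.68, -3.21, -2.93 and -3.29, with an iron difference of -0.35 in siTfe3/Tfeb cells. Snhg18 was the one of the 13 above 0 with iron in siGFP cells (0.47), and Gm4759 the one above 0 with iron in siTfe3/Tfeb cells (0.23), each against a spot SD of 0.27 or less.

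In all, 29 measured non-coding genes had a snoRNA gene inside, of which 13 (44.8%) were members, against 167 of 637 (26.2%) without one. Over the 29, the knockdown medians were 0.07 and 0.01. Gas5, the bright snoRNA host known as growth arrest specific, was not a member, with iron differences of -0.40 and -0.51 and knockdown differences of 0.13 and 0.01. Snhg15 differed by 0.05 and 0.17 with iron. Of the 25 names on a list of snoRNA hosts, 19 were measured on all 4 arrays and 9 were members; with iron, 2 of the 19 were above 0 under siGFP and 3 under siTfe3/Tfeb.

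**Figure D3:**
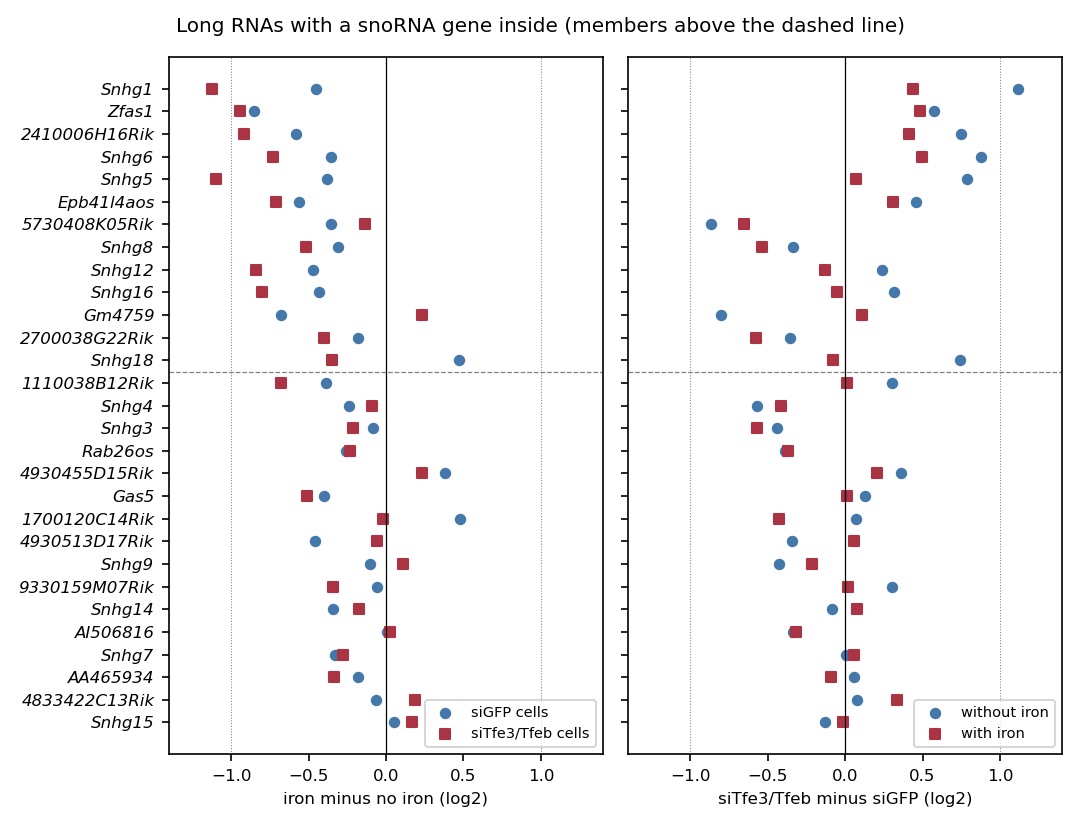
Iron differences (left) and knockdown differences (right), log2, of the 29 measured long RNAs with a snoRNA gene inside, with members above the dashed line. Each point is a difference between 2 arrays, dotted lines mark 2-fold, and most points of the left panel lie below 0 (24 of 29 under siGFP, 23 of 29 under siTfe3/Tfeb).

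The microRNA hosts differed among themselves. RefSeq places a microRNA gene within 3 members, Mir22hg, Dleu2 and Carmn. The mature microRNAs of the first pair are shown with the seed, bases 2 to 8, in capitals, because the array reports the host transcript and not these products. Positions are on GRCm38.p6.
mmu-miR-22-5p (chr11:75463734-75463755, plus strand): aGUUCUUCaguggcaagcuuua
mmu-miR-22-3p (chr11:75463772-75463793, plus strand): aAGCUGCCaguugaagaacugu
mmu-miR-15a-5p (chr14:61632075-61632096, minus strand): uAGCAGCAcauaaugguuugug
mmu-miR-16-5p (chr14:61631936-61631957, minus strand): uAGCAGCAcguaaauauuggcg
miR-15a-5p and miR-16-5p, both from Dleu2, share one seed, and the arms of miR-22 each have their own.

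Mir22hg read -0.36, 0.52, -1.15 and -0.19. It was 1.83-fold higher with iron in siGFP cells and 1.95-fold higher in siTfe3/Tfeb cells, and 1.73-fold lower with the knockdown without iron (spot SD 0.12 in log2). Its highest array was siGFP with iron and its lowest siTfe3/Tfeb without iron. Dleu2 read -2.27, -2.08, -2.98 and -2.31, lowest in siTfe3/Tfeb without iron. Its 2 other probes that were well above background had ranges of 0.27 and 0.33, against 0.90 for the member probe.

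Mir99ahg, host of the miR-99a and let-7c genes, read -3.37, -3.33, -2.59 and -2.75, with both siTfe3/Tfeb arrays above both siGFP arrays by 0.78 and 0.58 (spot SD 0.27). Of its 4 other measured probes, the brightest pair went the other way with the knockdown, by -0.25 and -0.27 and by -0.10 and -0.16, and the dimmer pair was higher by 0.64 and 0.36 and by 0.64 and 0.33. Of 17 names on the list of microRNA hosts, 5 were measured on all 4 arrays and none was 2-fold apart in any comparison. Mir142hg, a blood-cell microRNA host, had a range of 0.79 but only through a probe without a non-coding RefSeq accession, so it is not a member.

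Carmn, a long RNA of muscle and mesenchymal cells that holds the miR-143 and miR-145 genes, had the second widest range (2.07) and read -4.65, -3.27, -3.49 and -2.58. It was near the lower end of what could be measured, with a spot SD of 0.27. With iron it was 2.61-fold higher in siGFP and 1.88-fold higher in siTfe3/Tfeb cells, and with the knockdown 2.23-fold and 1.61-fold higher. Gm8884, a long non-coding RNA, read -3.18, -1.99, -2.21 and -1.16. Mcpt-ps1, a pseudogene of the mast cell protease family, read -2.18, -0.95, -1.27 and -0.18. These 3 RNAs had the same order of arrays, lowest in siGFP and highest in siTfe3/Tfeb with iron.

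The genes most like them were found by the root mean square distance of centred values over the 4 arrays, among 3714 genes with a range of at least 0.7. Closest to Carmn were Atf3, a stress-induced transcription factor, at 0.07, Gm8884 at 0.08 and C77080 at 0.09. Closest to Gm8884 were Mcpt-ps1 at 0.04, Atf3 at 0.06 and a probe that has only a position for a name. Atf3 read 0.74, 2.01, 1.70 and 2.67, so it was 1.27 and 0.97 higher with iron and 0.96 and 0.66 higher with the knockdown. With 4 points a close match is a description of these arrays.

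**Figure D4:**
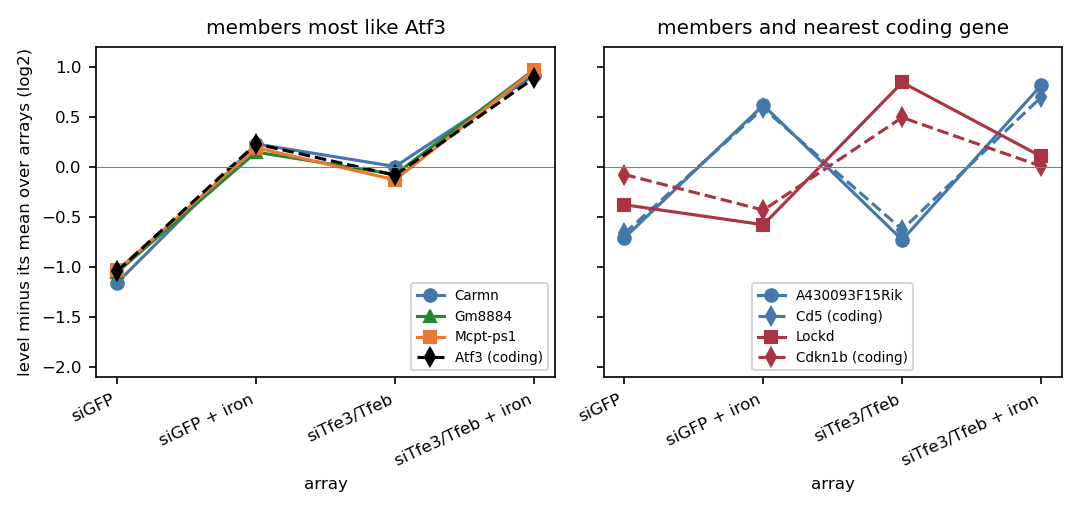
Levels minus their own mean over the 4 arrays (log2), with 1 array per group; lines join arrays of 1 gene and carry no order. Left, Carmn, Gm8884 and Mcpt-ps1 with the coding gene Atf3; right, A430093F15Rik with Cd5 and Lockd with Cdkn1b, drawn dashed for the coding gene.

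2900060B14Rik, a long non-coding RNA that lies within the span of Clasp1, had the widest range of all, 2.43, and read -2.36, -1.21, -3.64 and -1.27. With iron it was 2.22-fold higher in siGFP and 5.17-fold higher in siTfe3/Tfeb cells. The siTfe3/Tfeb array without iron was the low one, 2.43-fold below siGFP, while with iron the knockdown difference was -0.06 (spot SD 0.24). Clasp1 itself, which codes for a microtubule-binding protein, differed by -0.11 and 0.09 with iron. The closest patterns were those of Phlda1 (distance 0.20), Asb11 (0.21) and Fam167a (0.22).

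Gm15645, a pseudogene by RefSeq and a bright probe, read 3.81, 4.95, 3.09 and 4.42. Both arrays with iron lay above both without, by 1.15 and 1.33, and both siTfe3/Tfeb arrays lay below their siGFP partners, with differences of -0.72 and -0.53; the spot SD at this level was 0.0637. A430093F15Rik read -1.02, 0.31, -1.04 and 0.51, which is 2.51-fold and 2.92-fold higher with iron and hardly different between siRNAs. AU022793 read 0.92, 2.08, 0.59 and 1.85, 2.24-fold and 2.39-fold higher with iron. In these 3 RNAs both arrays with iron lay above both without it, as they did in 2900060B14Rik, Gm8884 and Mcpt-ps1. The members were chosen for differing between these arrays, and the share of all genes with this order was not counted.

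Higher with iron and lower with the knockdown was also 3110045C21Rik, which read -3.64, -3.17, -4.57 and -3.77. In 6 RNAs, against 0.807% of all genes, the iron difference was at least 2-fold upward in both siRNA groups: 2900060B14Rik, Gm8884, Mcpt-ps1, Gm15645, A430093F15Rik and AU022793. No member was at least 2-fold lower with iron in both, as were 0.0433% of all genes (8 of 18467).

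Mirt1, a long non-coding RNA known from infarcted heart tissue, read -3.24, -3.07, -1.87 and -1.75. Both siTfe3/Tfeb arrays lay above both siGFP arrays, 2.57-fold without iron and 2.5-fold with iron. The iron differences at this probe were 0.17 and 0.13 (spot SD 0.24). A second, brighter Mirt1 probe that the rule did not use was higher with the knockdown by 1.14 and 1.63. With iron that probe differed by -0.44 in siGFP cells, the other direction, and by 0.05 in siTfe3/Tfeb cells. 1810010D01Rik, now named Smim38 for a small membrane protein, read -4.43, -4.05, -2.83 and -2.84, 3.04-fold and 2.32-fold higher with the knockdown.

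The other RNAs of inflammation on the list moved less. Gm14005, known as Morrbid, a regulator of myeloid cell survival, read -2.90, -2.99, -3.68 and -3.21, and a brighter probe of it differed by 0.09 and -0.25 with the knockdown against -0.77 and -0.23 for the member probe. Ttc39aos1, known as lincRNA-EPS, a restrainer of immune genes in macrophages, read -2.60, -2.91, -2.83 and -3.48, while its brighter probe had a range of 0.25. Of 17 names on this list, 8 were measured on all 4 arrays, 3 were members, and Mirt1 was the only one 2-fold apart in a comparison.

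Lockd, transcribed downstream of Cdkn1b, the gene of the cell cycle inhibitor p27, read 0.81, 0.61, 2.03 and 1.29. It was 2.33-fold higher with the knockdown without iron and 1.61-fold higher with iron, and Cdkn1b, at 2.29, 1.94, 2.86 and 2.37, was higher by 0.57 and 0.44. Both were highest in siTfe3/Tfeb without iron. 5031434O11Rik, which overlaps Setd7, a gene of a lysine methyltransferase, read -2.18, -2.82, -0.96 and -2.05. D930048N14Rik read -1.92, -2.37, -0.86 and -1.57. Both were highest in siTfe3/Tfeb without iron and lowest in siGFP with iron.

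The same highest and lowest arrays were found in 8 further RNAs of the widest 25. AI504432 read -3.62, -4.37, -2.78 and -3.97, 1700001K23Rik read -2.43, -3.08, -1.52 and -2.28 and Cahm read -3.06, -3.65, -2.21 and -2.80. Tmem51os1, the opposite-strand RNA of Tmem51, read -2.45, -3.01, -1.60 and -2.32, 4831440E17Rik read -2.90, -3.41, -2.04 and -3.09 and 5830454E08Rik read -1.44, -1.82, -0.45 and -0.95. All 6 were dim, with spot SDs between 0.24 and 0.27. Snhg1 and Zfas1, given above, are the remaining pair.

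Lower with both iron and the knockdown were Gm5086, 9130227L01Rik and 2900005J15Rik. Gm5086 read -2.32, -2.92, -3.08 and -4.06, 9130227L01Rik read -3.15, -3.34, -4.28 and -4.63 and 2900005J15Rik read -3.04, -3.53, -3.46 and -4.50. Each was lowest in siTfe3/Tfeb with iron and highest in siGFP. 2210408F21Rik, outside the widest 25 but bright, read 4.01, 3.85, 2.99 and 2.70, with both siTfe3/Tfeb arrays at least 2.03-fold below their siGFP partners (spot SD 0.0637); it was chosen after its values were seen.

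Of 23 names on the list of structural RNAs, 12 were measured on all 4 arrays and 2 were members. Only Vaultrc5, Kcnq1ot1 and Airn of the 12 had a range of at least 0.7. Vaultrc5, a vault particle RNA, read -2.81, -2.16, -2.88 and -2.25, with both arrays with iron above both without (0.66 and 0.63, spot SD 0.24). Kcnq1ot1, the imprinted antisense RNA of Kcnq1, read -0.28, 0.53, -0.09 and 0.27 by the member probe. Its 3 other measured probes had ranges of 0.22, 0.11 and 0.21, and 2 of them were brighter. Airn, another imprinted antisense RNA, had a range of 1.36 and was 1.16 higher with iron in siGFP cells, but by a probe without a non-coding RefSeq accession, so it is not a member. Of 7 names linked to p53, 5 were measured and none was a member or 2-fold apart in any comparison.

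Of the 29 pseudogenes, 4 were at least 2-fold higher with iron under siGFP and 2 under siTfe3/Tfeb, against 1.24% and 1.36% of all genes. Because the members were chosen for differing between these arrays, nothing is read from these counts. Gpr137b-ps read 1.10, 2.18, 1.16 and 1.86, higher with iron by 1.09 and 0.70. The coding Gpr137b probe that shares 46 bases with it was higher by 1.19 and 0.66. 2700099C18Rik read -0.70, -0.68, 0.19 and -0.64, and the probe of Ndc80, a kinetochore gene that shares 25 bases, differed by -0.15 and -0.75 with iron and 0.66 and 0.07 with the knockdown, against 0.01, -0.83, 0.89 and 0.04. Probes with such runs may also take up RNA of the parent gene, and the share of it was not tested. Slfn10-ps, a schlafen pseudogene, read 1.46, 1.62, 0.57 and 0.83, and a second Slfn10-ps probe differed by -1.05 and -0.84 with the knockdown, near the -0.88 and -0.79 of the first.

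Among the 17 antisense or opposite-strand RNAs, medians were -0.34 and -0.65 with iron and 0.46 and 0.06 with the knockdown. Cep83os read 0.63, 0.29, 1.58 and 0.35, with siTfe3/Tfeb without iron above the other 3 arrays. Rsf1os1 was the one that was 2-fold higher with iron (1.06 in siGFP and 0.41 in siTfe3/Tfeb cells).

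Of the 14 non-coding transcripts of coding genes, 1 was 2-fold apart in an iron or knockdown comparison, 1810010D01Rik. Where such a gene had other probes, these often did not follow. The Ncf1 member probe, for a subunit of the phagocyte oxidase, differed by -0.87 with the knockdown without iron, and its 2 brighter probes with coding accessions by -0.16 and 0.15. The Hspa14 member probe, for a ribosome-associated chaperone, differed by -0.77, and its 2 bright coding probes by -0.10 and -0.29.

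Other probes of the same genes gave none of the member values, though those with a non-coding accession also went through the rule. In 35 members, 51 other probes were well above background on all 4 arrays, and 19 of these 51 also had a range of at least 0.7. By the brightest probe, 20.1% of all genes had such a range. Shares over all probes were not counted for this range or for the signs below, so nothing is read from these counts. For knockdown without iron, 18 genes with a member difference of at least 0.7 had 27 such probes, of which 19 had the same sign, 5 were also at least 0.7 apart in that direction and 0 in the other. The 5 included probes of Mirt1, Slfn10-ps and BC025920 (0.74 against 0.76). Crnde, a long non-coding RNA of dividing cells, differed by 0.64 at the member probe and 0.81 at another. Of the 51 probes, 28 were brighter than the member probe of their gene.

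**Figure D5:**
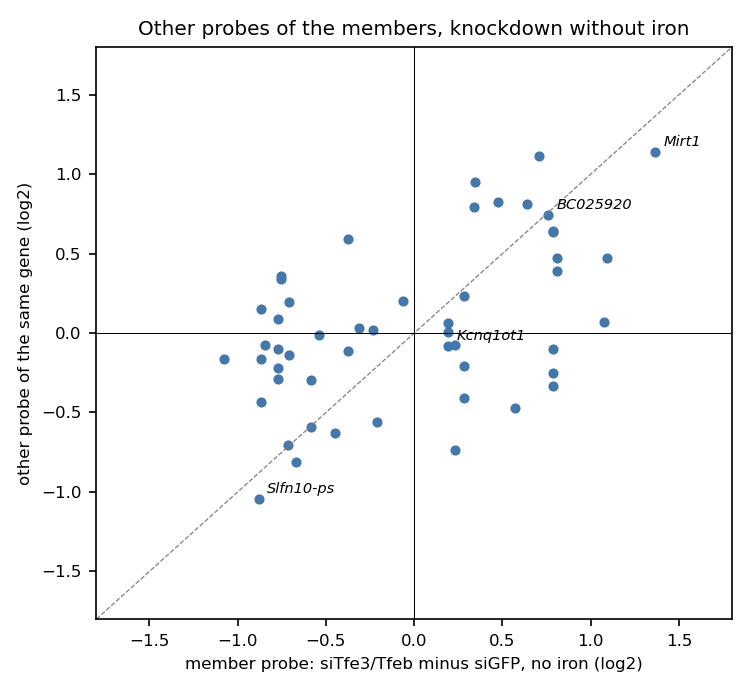
Knockdown difference without iron (siTfe3/Tfeb minus siGFP, log2) at the 51 other measured probes of 35 members, against that at the member probe. The dashed line marks equal differences; points near the horizontal line, such as those of Kcnq1ot1, are probes that hardly differed between the arrays.

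The nearest coding gene was measured for 147 of the 181 members that are not transcripts of coding genes, and it overlapped in 54. Of members at least 0.7 apart, the neighbour had the same sign in 10 of 19 for iron in siGFP cells (52.6%), 33 of 50 for iron in siTfe3/Tfeb cells (66.0%), 33 of 65 for knockdown without iron (50.8%) and 22 of 45 with iron (48.9%). Over all 475 non-coding genes with a measured neighbour, whatever their size, the shares were 56.8%, 50.3%, 51.8% and 53.1%.

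Some pairs, chosen after their values were seen, stood close together. Cd5, a scavenger receptor family gene next to A430093F15Rik, read 2.30, 3.55, 2.34 and 3.66 and was 1.25 and 1.32 higher with iron, against 1.33 and 1.55 for the non-coding RNA. Lrp12, near AU022793, was 0.90 and 0.86 higher with iron. Zkscan17, a zinc finger gene that overlaps 4933439C10Rik, was 1.12 and 0.72 higher with the knockdown, against 1.09 and 1.03 at the member probe of 4933439C10Rik and 0.48 and 0.09 at a dimmer probe of it. In contrast, Znfx1 differed by -0.76 and -0.51 with the knockdown while Zfas1, on the opposite strand, was higher by 0.57 and 0.48.

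Promoters of 135 members, 250 bases before to 50 after the start, were searched on both strands. CACGTG, the core of the element bound by Tfe3 and Tfeb, was in 13.3% of member genes and 8.09% of all genes. The full CLEAR element, a palindrome of 10 bases that contains it, was in 2 members, 2310010J17Rik and Zfp207 (1.48% against 0.37%). TGACNNNGC, the antioxidant response core, was in 26 of 135 member genes and 3781 of all 27025, TGATGNAA, the C/EBP-ATF element, in 2.22% against 4.51%, and the interferon stimulated response element in 6.67% against 3.99%. Among the 10 snoRNA hosts with a promoter, 1 held CACGTG, 5730408K05Rik, and none held TGATGNAA or the interferon element. A match of letters does not show binding.

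The remaining members are accounted for by their range: 83 of the 195 had a range of at least 1. Members at least 2-fold apart with iron in siGFP cells that were not named above were E030024N20Rik (1.18), 6330407A03Rik (1.07), 4933438K21Rik (-1.07) and 1700061I17Rik (-1.07), and in siTfe3/Tfeb cells D630024D03Rik (1.28). Higher by at least 2-fold with the knockdown without iron were Gm12522 (1.05), 1700084E18Rik (1.12) and Ppp4r1l-ps (1.08). Lower there were 4930599N23Rik (-1.08), Gm15471 (-1.26), Gm20324 (-1.22), 9330162B11Rik (-1.20), 4932415M13Rik (-1.08), Marcksl1-ps4 (-1.06) and 1700052K11Rik (-1.05). The other measured probe of Ppp4r1l-ps differed by 0.07 there and that of 4930599N23Rik by -0.16. With iron, the knockdown difference reached 2-fold in Zxda, just above that size, and on the lower side in 1810062O18Rik (-1.27), Tmem181b-ps (-1.03) and D030028A08Rik (-1.13).

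The iron response was higher in siTfe3/Tfeb than in siGFP cells by at least 1 in 2900060B14Rik (1.22), Slc8a1 (1.17), H2afy3 (1.16), 9330162B11Rik (1.12) and LOC100505025 (1.01), and lower in Gm14486 (-1.09) and E030024N20Rik (-1.06). None of these differences was tested. With background correction by normexp, 77 genes rather than 195 met the rule and none of these 7 response differences reached 1.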

How the data were processed

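Total RNA of 4 cultures of mouse RAW264 cells, 50 ng each, was labelled with Cy3 and hybridised to Agilent 1-colour mouse arrays. The deposited scanner files, made with Agilent Feature Extraction 12.0.3.1 per the submitters' processing notes, hold an intensity per spot: a background-subtracted processed signal, a mean signal and a background signal, per the file headers. The authors also deposited a table of log2 values in which each probe is centred on its median over the arrays. Its column medians were -0.0042, 0.0223, -0.0870 and 0.0013, and differences in it matched those of the scanner values with a slope of 1.0; the further steps behind it are not given in the sources used here.

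The main value is log2 of the processed signal minus the log2 75th percentile of non-control spots on its array. Outlier spots by the scanner's flags were dropped and a probe's repeated spots averaged, which gave 56605 probes. The error is the SD among repeated spots of a probe within an array, scaled to the difference of a pair of spots, in bins of level. It holds no error between arrays. No test was run, because each group is 1 array; their number limits the precision. The members and lists were chosen with earlier results of these data known. Values in every array are given for the 25 RNAs with the widest range and for every member on a list (snoRNA hosts, microRNA hosts, innate immune, p53-linked, structural); others are given by ranges and counts. Array positions are mm9; names, neighbours, microRNAs and promoters come from RefSeq on GRCm38.p6. Python 3.11.15, pandas 2.3.3 and, for normexp (offset 50) and quantile normalization, limma 3.58.1 were used. The selection rule was run on simulated data with added differences and noise of the size of the spot SD. That noise holds no error between arrays or between cultures, so the run says nothing about such error. Alternatives are listed in the closing section. Whether cultures were pooled is not given in the sources used here.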

Additional observations from a re-analysis of the deposited data

Results flagged for a closer look

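Etohd2, a long non-coding RNA, had iron differences on opposite sides of 0 in siGFP cells (-0.60) and siTfe3/Tfeb cells (0.28), each more than 2 spot SDs (0.084) from 0. The responses lay 0.88 apart, a difference that was not tested. The member probe of Kcnq1ot1 had knockdown differences on opposite sides of 0, 0.19 without iron and -0.25 with iron. Each was more than 2 spot SDs from 0 by the SD at the probe's mean level (0.084). However, both arrays without iron read below 0 (-0.28 and -0.09), where the SD was 0.119 and rested on 9 sets of repeated spots. By that SD, 0.19 is less than 2 SDs from 0. The knockdown differences lay 0.45 apart, which was not tested either, and the other probes of Kcnq1ot1 were nearly level.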

How the results depend on the processing

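The number of non-coding genes meeting the rule was 198 with quantile normalization, 205 with median centring, 193 with the authors' log2 table, 188 with the mean over probes of a gene and 190 with the brightest probe chosen first, and 181 to 191 of the 195 were kept in each. It was 77 with normexp (76 of them shared), 905 without the background filter and 88 when the rule was applied with a range of at least 1, which can bring in a dimmer probe of a gene. Under normexp, whose offset of 50 draws dim values together by construction, the 2-fold counts higher and lower were 4 and 0 for iron in siGFP cells, 4 and 3 for iron in siTfe3/Tfeb cells, 2 and 2 for knockdown without iron, 0 and 1 for knockdown with iron and 0 and 0 for the difference of responses. The lower count of that difference was 1 rather than 2 with quantile normalization and with median centring. All other counts stayed within 1.5 times the reported ones. All 58 member differences of at least 2-fold kept their direction in each of 5 settings. Of these, 16 stayed 2-fold under normexp and 58 with the authors' table. With quantile normalization, median centring and the mean over probes with a non-coding accession, 55 stayed so in each. With median centring the 2-fold split for iron in siTfe3/Tfeb cells was 9 higher and 5 lower, against 7 and 7, and for the knockdown with iron 5 and 5, against 4 and 6. No setting moved the median of all genes by over 0.1. No paired analysis was possible because each group is 1 array and the labels carry no replicate numbers. Depth is set by signal over background: most members are dim, where spot SDs were largest.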
